A study of Mus musculus with 3 samples.

Results

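The insulin-like growth factor (IGF) binding proteins and their receptors were followed in mouse embryoid bodies with a C-terminally truncated Dido3 protein and in wild type embryoid bodies. The set holds 10 genes of the 15428 that were tested: the binding proteins Igfbp1 to Igfbp7, the ligand Igf1, and the receptors Igf1r and Insr. The genes were chosen by name, with their mutant over wild type ratios already in view, so these ratios are described here and not tested. All 18 array probes that carry one of these gene names were read, of 39429 non-control probes, and 14 of the 18 passed the detection filter, which keeps a probe if the scanner software marked it as well above background in every mutant sample or in every wild type sample. All 10 genes kept at least 1 probe.

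Both groups were embryoid bodies, aggregates of embryonic stem cells left to differentiate, which were kept in suspension culture without LIF, the factor that sustains self-renewal, until day 10. One group carried the Dido3deltaCT mutation, the other was the wildtype control, and each had 3 biological replicates. The labels do not say whether the replicates are independent lines or repeated cultures of a single line, and for a single line per genotype a difference between genotypes cannot be told apart from one between lines. Each of the 3 arrays held 1 mutant and 1 wild type sample in 2 dyes, the mutant in Cy3 on replicates 1 and 3 and in Cy5 on replicate 2.

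Insulin-like growth factors are small secreted hormones, related to insulin, that drive growth through the receptor tyrosine kinase Igf1r. In extracellular fluid most of the hormone is held by binding proteins, which keep it from the receptor or carry it to the cell surface, and proteases that cut the binding proteins set it free. Igfbp1 to Igfbp6 bind the growth factors tightly, whereas Igfbp7 binds them weakly. In the embryo Igf2 is the abundant ligand.

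Replicate 2 stood apart over the whole array. Across the tested genes, which are not independent replicates, log2 ratios of mutant over wild type correlated at 0.879 between replicates 1 and 3, but at 0.151 between 1 and 2 and at 0.180 between 2 and 3. Replicate 2 is also the only array with the mutant in Cy5, so dye and replicate cannot be told apart, and each member is given with the value of replicate 2 and with the mean of replicates 1 and 3. The 4 probes of Dido1, the gene of Dido3, gave mean log2 ratios of 1.74, 1.36, 1.12 and −1.92, each with the same sign on the 3 arrays. Where the truncation begins and ends is not in the labels, so Dido1 is no check of the genotypes here. The share of spots marked as well above background ran from 46.5% to 62.5% for mutant and from 48.5% to 74.4% for wild type samples, and with only 3 arrays the precision is limited. No spot of the 10 genes was saturated.

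Igfbp1 and Igfbp5 were the 2 members with the largest differences, and both were lower in the mutant. They lie beside 2 other members: in the gene order of GRCm38.p6 Igfbp1 and Igfbp3 are adjacent protein-coding genes on chromosome 11, as are Igfbp2 and Igfbp5 on chromosome 1. The oligonucleotide that reads each of these 4 genes is shown by its first 30 of 60 bases, 5′ to 3′, because their ratios come from 4 separate sequences and not from a shared one. No base is in capitals, since no part of a probe is set apart from the rest. The positions are those of the scanner files on mm9, and the exon or UTR that each lies in was not annotated here.
Igfbp1 A_51_P447545: aaagttccgatgctgattgtgtaaccaaag
Igfbp3 A_52_P253179: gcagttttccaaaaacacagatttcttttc
Igfbp2 A_66_P135391: aggagttcccagttttgacacatgtattta
Igfbp5 A_52_P281702: cacatcacatattactgtagctctctatag
These stretches start the probes at chr11:7102442-7102471 on the plus strand for Igfbp1, at chr11:7106624-7106653 on the minus strand for Igfbp3, at chr1:72898813-72898842 on the plus strand for Igfbp2 and at chr1:72904859-72904888 on the minus strand for Igfbp5.

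Igfbp1 is an insulin-responsive binding protein made mainly by liver and decidua. Its normalised log2 signal was 12.50, 13.17 and 13.61 in the wild type samples of replicates 1, 2 and 3. In the mutant samples it was 6.88, 9.64 and 7.89. Every mutant sample lay below every wild type sample, and the spread was wider in the mutant (SD 1.40, n = 3) than in the wild type (SD 0.56, n = 3). The mutant spot was well above background on replicates 1 and 2 but not on replicate 3. The log2 ratios were −5.62, −3.52 and −5.71, a mean of −4.95 ± 1.24 (SD, n = 3) or 31.0-fold lower signal in the mutant. The mean includes the mutant spot of replicate 3, which was not marked as well above background, so the fold is not exact. That spot had a raw signal of 129.7 over a background of 36, and the mutant spot of replicate 1 had 94.8 over 31. The probe passed the filter through the wild type samples alone. Replicates 1 and 3 averaged −5.67, and replicate 2 gave the smallest difference of the 3. The size of the mean ratio depended on the processing: it was −3.80 with every spot of replicate 3 in the background model. It was −3.18 in the authors' deposited table, whose settings are not given. Processed signals of the scanner software gave −5.88 and median centring −5.31.

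Igfbp5 is a binding protein that also attaches to extracellular matrix and is prominent in mesenchymal tissues and the nervous system. Its log2 signal was 12.82, 11.63 and 13.27 in the wild type samples and 8.61, 8.82 and 8.43 in the mutant samples. The mutant samples were close to each other (SD 0.19, n = 3), and the wild type sample of replicate 2 was the lowest of its group. The groups did not overlap, and all 6 spots were well above background. The log2 ratios of −4.21, −2.81 and −4.84 averaged −3.95 ± 1.04 (SD, n = 3), or 15.5-fold lower signal in the mutant, with −4.52 over replicates 1 and 3. This mean was the 19th lowest of the tested genes. It was −2.99 with every spot of replicate 3 in the background model and −2.54 in the authors' deposited table. Processed signals of the scanner software gave −4.33 and median centring −4.31.

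**Figure D1:**
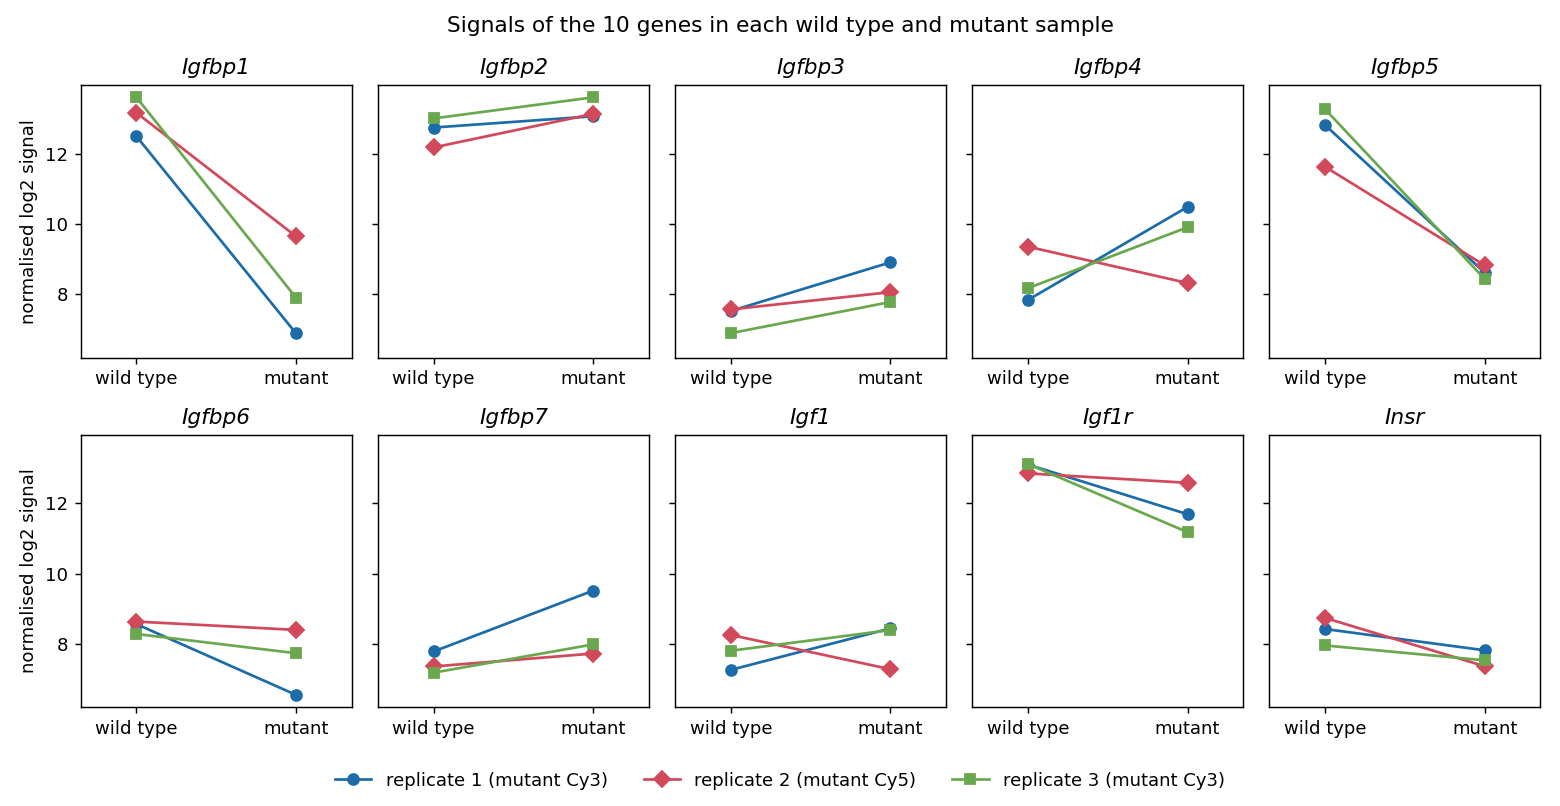
Normalised log2 signal of the probe used for each of the 10 genes, in the wild type and the mutant sample of each array (lines join the 2 samples of an array, and markers give the replicate). Igfbp1 and Igfbp5 have all mutant samples far below all wild type samples, and the lines of Igfbp4 and Igf1 cross because replicate 2 goes the other way; heights compare only within a panel, since probes differ in brightness.

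Because these 2 genes had the largest ratios and moved together, their promoters are shown for comparison as the 250 bases before the RefSeq start on GRCm38.p6, in the direction of the gene. RefSeq promoter sequence was matched for 9 of the 10 genes, in 10 windows, and not for Insr. Capitals mark any match, on either strand, to the 4 motifs searched: CAAAACA, a sequence of the insulin response element known from the Igfbp1 promoter, GTAAACA, a FOXO binding consensus, ACGTG, the hypoxia response core, and TATAAA, the TATA box.
Igfbp1 chr11:7197537-7197786, plus strand: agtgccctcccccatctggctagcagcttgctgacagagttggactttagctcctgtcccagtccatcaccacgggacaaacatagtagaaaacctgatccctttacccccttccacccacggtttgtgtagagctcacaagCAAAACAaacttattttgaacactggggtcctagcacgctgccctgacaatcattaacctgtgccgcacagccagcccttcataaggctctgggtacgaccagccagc
Igfbp5 chr1:72874866-72875115, minus strand: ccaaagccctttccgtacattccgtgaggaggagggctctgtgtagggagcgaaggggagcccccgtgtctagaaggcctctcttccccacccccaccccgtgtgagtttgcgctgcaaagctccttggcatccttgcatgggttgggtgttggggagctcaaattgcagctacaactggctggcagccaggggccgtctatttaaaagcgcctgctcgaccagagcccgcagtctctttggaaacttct
The Igfbp1 window held 1 match, CAAAACA on the strand of the gene, which began at position −108 from the start. Of 32817 promoter windows of this length 5.56% held that motif on either strand. The Igfbp5 window held none of the 4 motifs. GTAAACA, present in 3.16% of all windows, was found in none of the members' windows. The absence of these letters does not show that a window lacks a FOXO site. ACGTG, present in 16.6% of all windows, lay in 1 of the 2 Igfbp2 windows, as overlapping matches on both strands, and in that of Igfbp7. TATAAA, present in 12.4% of all windows, lay in that of Igfbp4, at position −28 on the strand of the gene. It also lay in that of Igfbp6, at position −148 on the opposite strand. Igfbp1 and Igfbp5 therefore shared no match among these motifs, and a match describes letters only, not binding.

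The neighbour of each had a small ratio of the opposite sign. Igfbp3 is the main carrier of the growth factors in serum. Its log2 signal was 7.52, 7.56 and 6.88 in wild type and 8.90, 8.06 and 7.77 in mutant samples, so that the lowest mutant sample lay just above the highest wild type sample. The log2 ratios of 1.39, 0.49 and 0.89 averaged 0.92 ± 0.45 (SD, n = 3), 1.90-fold higher in the mutant, with 1.14 over replicates 1 and 3. A second Igfbp3 probe, annotated to another transcript, was marked as well above background in none of the 6 samples and gives no fold.

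Igfbp2, a binding protein of early embryonic and neural tissue, was read by 2 probes. The log2 signal of the probe used was 12.75, 12.18 and 13.01 in wild type and 13.07, 13.14 and 13.61 in mutant samples. The groups did not overlap, by a small gap. Its log2 ratios of 0.32, 0.96 and 0.60 averaged 0.63 ± 0.32 (SD, n = 3), 1.54-fold higher in the mutant. Replicate 2 gave the largest value, and the mean of replicates 1 and 3 was 0.46. The other Igfbp2 probe gave −0.20, 1.08 and 0.19, a mean of 0.36 ± 0.66 (SD, n = 3), and its groups overlapped. The higher signal of Igfbp2 is thus not shown by both probes on each array.

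Igfbp7, a secreted protein of vessel walls and matrix, was read at chr5:77778271-77778330 of mm9. Its log2 signal was 7.78, 7.35 and 7.17 in wild type and 9.51, 7.72 and 7.98 in mutant samples. The log2 ratios were 1.74, 0.37 and 0.81, with a mean of 0.97 ± 0.70 (SD, n = 3) and of 1.27 over replicates 1 and 3. Every array gave a higher mutant signal, but the groups overlapped, since the mutant sample of replicate 2 lay below the wild type sample of replicate 1.

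Igfbp6, a binding protein that prefers Igf2, was read at chr15:101979852-101979911 of mm9. Its log2 signal was 8.56, 8.63 and 8.27 in wild type and 6.54, 8.39 and 7.73 in mutant samples. The log2 ratios of −2.02, −0.24 and −0.55 averaged −0.93 ± 0.95 (SD, n = 3). The sign was shared but the size rested on replicate 1, whose mutant spot was not well above background. The mean was −1.28 over replicates 1 and 3 but −0.39 without replicate 1, and the groups overlapped.

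Igfbp4, which inhibits the growth factors until the protease Pappa cuts it, had no settled direction. Its log2 signal was 7.83, 9.35 and 8.17 in wild type and 10.48, 8.32 and 9.91 in mutant samples. The log2 ratios were 2.65, −1.04 and 1.74, and the mean of 1.12 had a larger SD (1.92, n = 3). The Cy3 sample was the brighter one on all 3 arrays, whichever genotype it held. Over replicates 1 and 3, which share a dye orientation, the mean was 2.20, and with a dye term in the model it was 0.58.

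**Figure D2:**
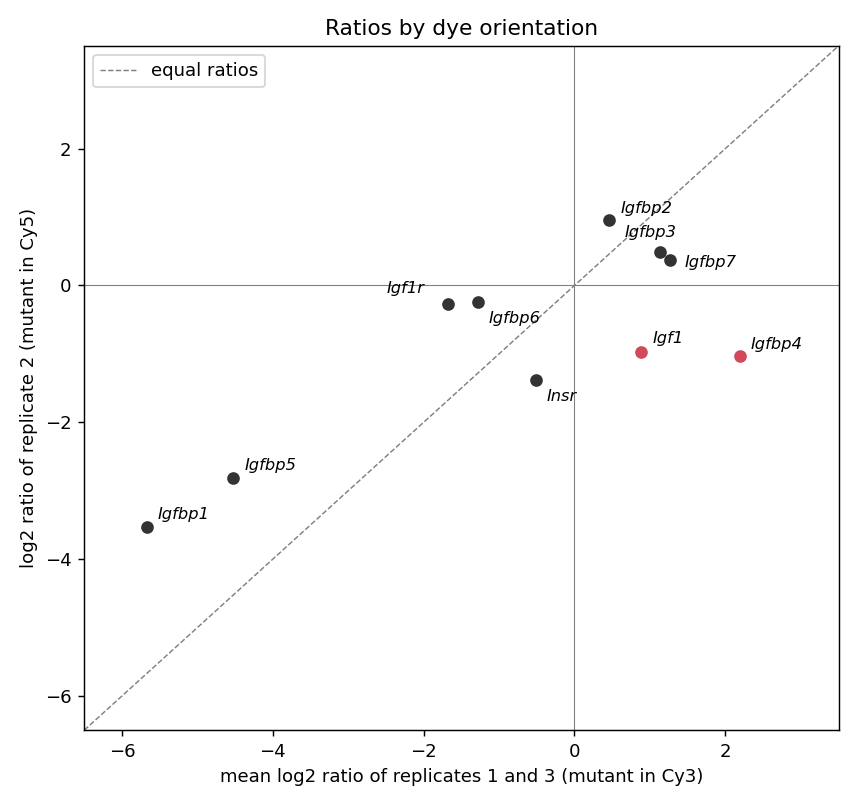
Log2 ratio of mutant over wild type of the probe used for each of the 10 genes, on replicate 2 (vertical axis, mutant in Cy5) against the mean of replicates 1 and 3 (horizontal axis, mutant in Cy3), with a dashed line of equal ratios. Of the 10 genes, Igfbp4 and Igf1 (red) have opposite signs in the 2 orientations, and Igfbp1 and Igfbp5 lie far below 0 on both axes.

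Igf1, the ligand made mainly after birth, behaved in the same way. The used probe had log2 signals of 7.25, 8.25 and 7.80 in wild type and 8.43, 7.27 and 8.39 in mutant samples. Its log2 ratios of 1.18, −0.97 and 0.59 averaged 0.27 ± 1.11 (SD, n = 3), or 0.89 over replicates 1 and 3, again with the Cy3 sample brighter on each array. A further probe gave 0.97, −1.001 and 0.98, but it is not a separate reading of the transcript: the 2 probes share 40 of their 60 bases. The first 30 bases of each are given to show this, with the 10 shared bases that fall within both stretches in capitals.
Igf1 A_55_P2085984, chr10:87393561-87393590, plus strand: cctaccaaataacaataataAGTCCAATAA
Igf1 A_55_P2031631, chr10:87393581-87393610, plus strand: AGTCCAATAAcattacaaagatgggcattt
Another probe that passed the filter, annotated to another transcript, gave 0.62, 0.18 and −0.32 and did not follow the dye. The other 2 Igf1 probes did not pass the filter. The Igf1 mean went below 0 with a dye term (−0.04) and without replicate 1 (−0.19), so no direction is given.

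Both receptors had lower signal in the mutant on each array. Igf1r carries the growth signal of both IGF ligands, and its probe lies at chr7:75378461-75378520 of mm9. Its log2 signal was 13.11, 12.85 and 13.12 in wild type, a tight group (SD 0.15, n = 3), and 11.69, 12.59 and 11.18 in mutant samples. The groups did not overlap, but the mutant sample of replicate 2 came close to the wild type. The log2 ratios of −1.41, −0.27 and −1.94 averaged −1.21 ± 0.86 (SD, n = 3), 2.31-fold lower in the mutant, with −1.68 over replicates 1 and 3.

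Insr, the insulin receptor, which also binds Igf2 in its fetal splice form, was the receptor read by several probes. The log2 signal of the probe used, at chr8:3151667-3151726 of mm9, was 8.42, 8.73 and 7.95 in wild type and 7.81, 7.36 and 7.52 in mutant samples. The log2 ratios were −0.61, −1.38 and −0.43, a mean of −0.80 ± 0.51 (SD, n = 3) or 1.75-fold lower, with −0.52 over replicates 1 and 3. A separate probe, at other bases of the gene, gave −0.80, −1.09 and −0.58, a mean of −0.82 ± 0.26 (SD, n = 3). It was well above background in only 2 of 3 mutant samples, not on replicate 3, and passed the filter through the wild type samples. Neither probe's groups overlapped, and for both the largest difference was on replicate 2, whereas for Igf1r it was the smallest. The last Insr probe did not pass the filter. The labels of these probes do not separate the splice forms of the receptor.

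**Figure D3:**
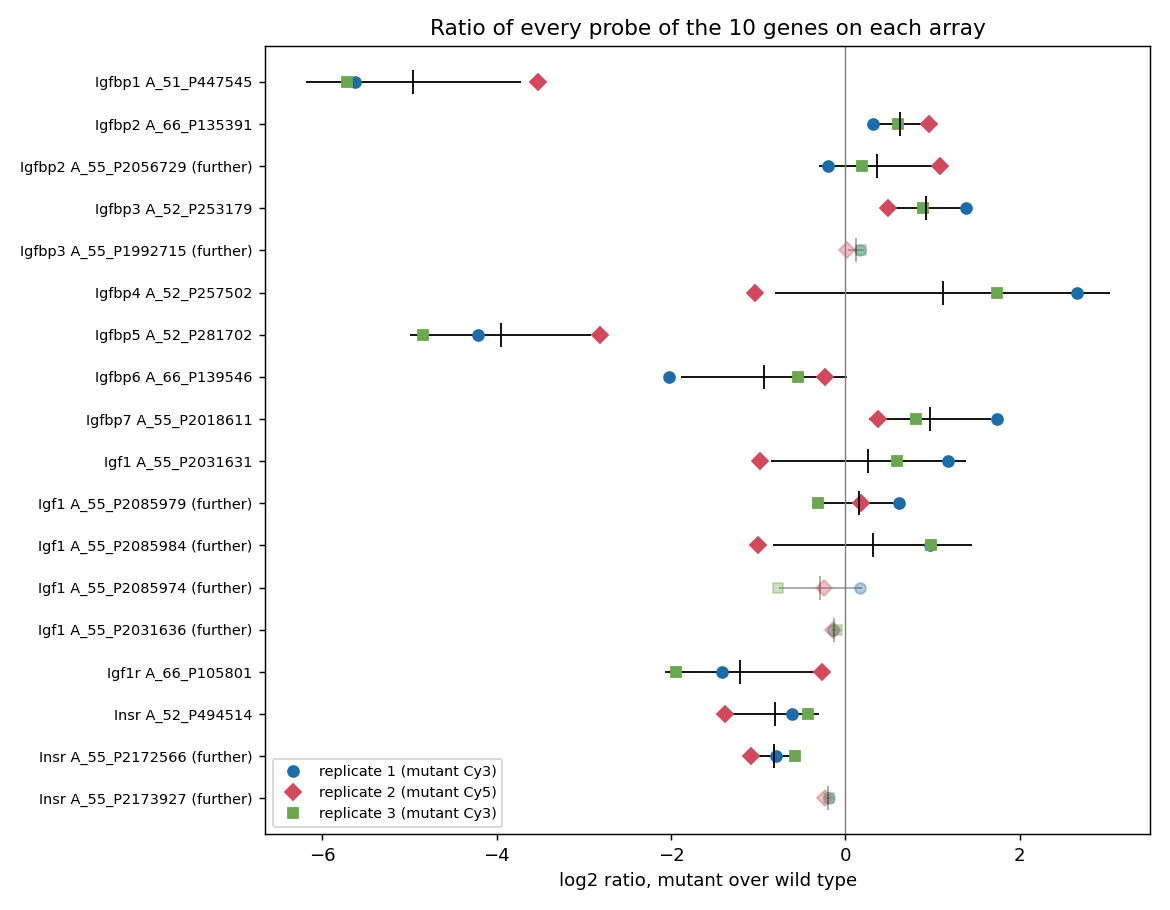
Log2 ratio of mutant over wild type of all 18 probes of the 10 genes on each array (markers), with the mean (vertical bar) and the SD over 3 arrays (horizontal line). Probes in pale colours did not pass the detection filter. The probes of Igfbp1 and Igfbp5 stand far to the left, and the 2 Insr probes that passed lie at −0.80 and −0.82.

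Within the set, Igfbp1, Igfbp5, Igfbp6, Igf1r and Insr were below 0 on all 3 arrays and Igfbp2, Igfbp3 and Igfbp7 above 0. That makes 8 of 10 genes with 1 genotype sign on the 3 arrays, where 44.3% of all tested genes had one. In 6 of 10 genes the normalised signals of mutant and wild type did not overlap, where 21.3% of all genes had no overlap. The median absolute log2 ratio was 0.95 in the set and 0.43 over all genes, and the median SD over arrays was 0.90 against 0.50. The median log2 ratio of the set had no steady sign: it was −0.14, −0.62 and 0.08 on the 3 arrays, −0.27 for the means over 3 arrays and −0.03 without replicate 2, against 0.03 over all genes. Since the genes were chosen with these values known, the counts describe the set and nothing is read from them.

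In the limma fit over all genes, at a Benjamini-Hochberg adjusted p of 0.05, 46 genes passed (0.298%), 32 higher (0.207%) and 14 lower (0.0907%) in the mutant, and none of the 10 members did. At an unadjusted p of 0.05 there were 3502 genes (22.7% of all tested), 6 of them members, and nothing is read from these counts either. The count of 0 members changed with the processing. Igfbp1 and Igfbp5 passed with the scanner software's processed signals, with scale normalisation between arrays, with the mean over a gene's probes and with the channels unpaired. In that order, these fits called 140, 68, 67 and 179 genes higher over all genes, and 106, 50, 36 and 96 lower. No member passed with median centring, the authors' deposited ratios, no filter, both channels above background, or without replicate 1. Since the members were chosen with their ratios in view, nothing is read from which of them passed. With all spots of replicate 3 in the background model no gene passed, and 1684 had an unadjusted p under 0.05. The higher share of the calls was 69.6%, against 56.9% with processed signals, 57.1% with median centring and 57.6% with scale normalisation.

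The other genes of the pathway were read from 4 lists with 54 genes, of which 36 were tested. None passed the threshold in either direction in the limma fit over all genes, and 13 (36.1%) had an unadjusted p under 0.05, against 22.7% of all tested genes. Their median log2 ratio was −0.40, against 0.03 over all genes. The lists were chosen with earlier results of these data known, so nothing is read from this share or this median. From here on, SE is that of the limma fit, not that of the 3 ratios alone. The fit draws each gene's spread towards a value common to all genes. In the ligand list 3 of 5 genes were tested. Igf2, the main embryonic ligand, had log2 ratios of −4.08, −2.79 and −2.90, a mean of −3.25 ± 0.35 (SE, n = 3, limma adjusted p = 0.0502). Every array was thus far below 0, without a call. Igf2r, the receptor that clears Igf2 and does not signal, averaged −0.39 ± 0.40 (SE) with values of 0.20, −1.44 and 0.07, and 0.14 without replicate 2. Ins1, an insulin gene, averaged 0.44 ± 0.31 (SE), and −0.18 on replicate 2, with a signal well above background in 2 of 3 wild type samples.

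Of the 8 proteases, their inhibitors and partners 3 were tested, with a median log2 ratio of −0.98, which is the value of Stc2. Pappa, the protease that cuts Igfbp4, gave −2.34, −1.74 and −1.98 on the 3 arrays, a mean of −2.02 ± 0.26 (SE, limma adjusted p = 0.0543). Stc2, an inhibitor of Pappa, averaged −0.98 ± 0.25 (SE, limma adjusted p = 0.112), with −0.87 on replicate 2. It was well above background in only 2 of 3 mutant samples, so that it entered the fit through the wild type samples. Htra1, a secreted protease that cleaves binding proteins, averaged 0.95 ± 0.34 (SE, limma adjusted p = 0.189), with 0.71 on replicate 2. The protease and its inhibitor were thus both below 0 on each array, and neither passed.

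A further 13 genes encode other proteins with an IGFBP-type domain, and 7 of them were tested. Their median of −1.11 is the value of Kazald1. Ccn2, a matrix-associated growth regulator, gave −3.02, −2.61 and −1.67, a mean of −2.43 ± 0.34 (SE, limma adjusted p = 0.0559). Crim1, a membrane protein that binds bone morphogenetic proteins, averaged −1.48 ± 0.33 (SE), and Kazald1, a secreted protein of bone, averaged −1.11 ± 0.24 (SE). On replicate 2 they gave −1.59 and −1.20. Neither passed, and each was well above background in only 2 of 3 mutant samples, so that it entered the fit through the wild type samples.

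Downstream of the receptors 24 of 29 adaptor and signalling genes were tested, with a median of 0.05, close to that of all genes. The lowest mean was that of Irs1, an adaptor that links both receptors to PI3-kinase, with −2.62, −1.06 and −2.76 on the 3 arrays. It averaged −2.15 ± 0.41 (SE, limma adjusted p = 0.0729), but −1.33 as the mean over its probes. Irs2, the other widely used adaptor, averaged −1.21 ± 0.31 (SE), with −0.56 on replicate 2. Neither passed, and the kinases and phosphatases further down were spread on both sides of 0.

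**Figure D4:**
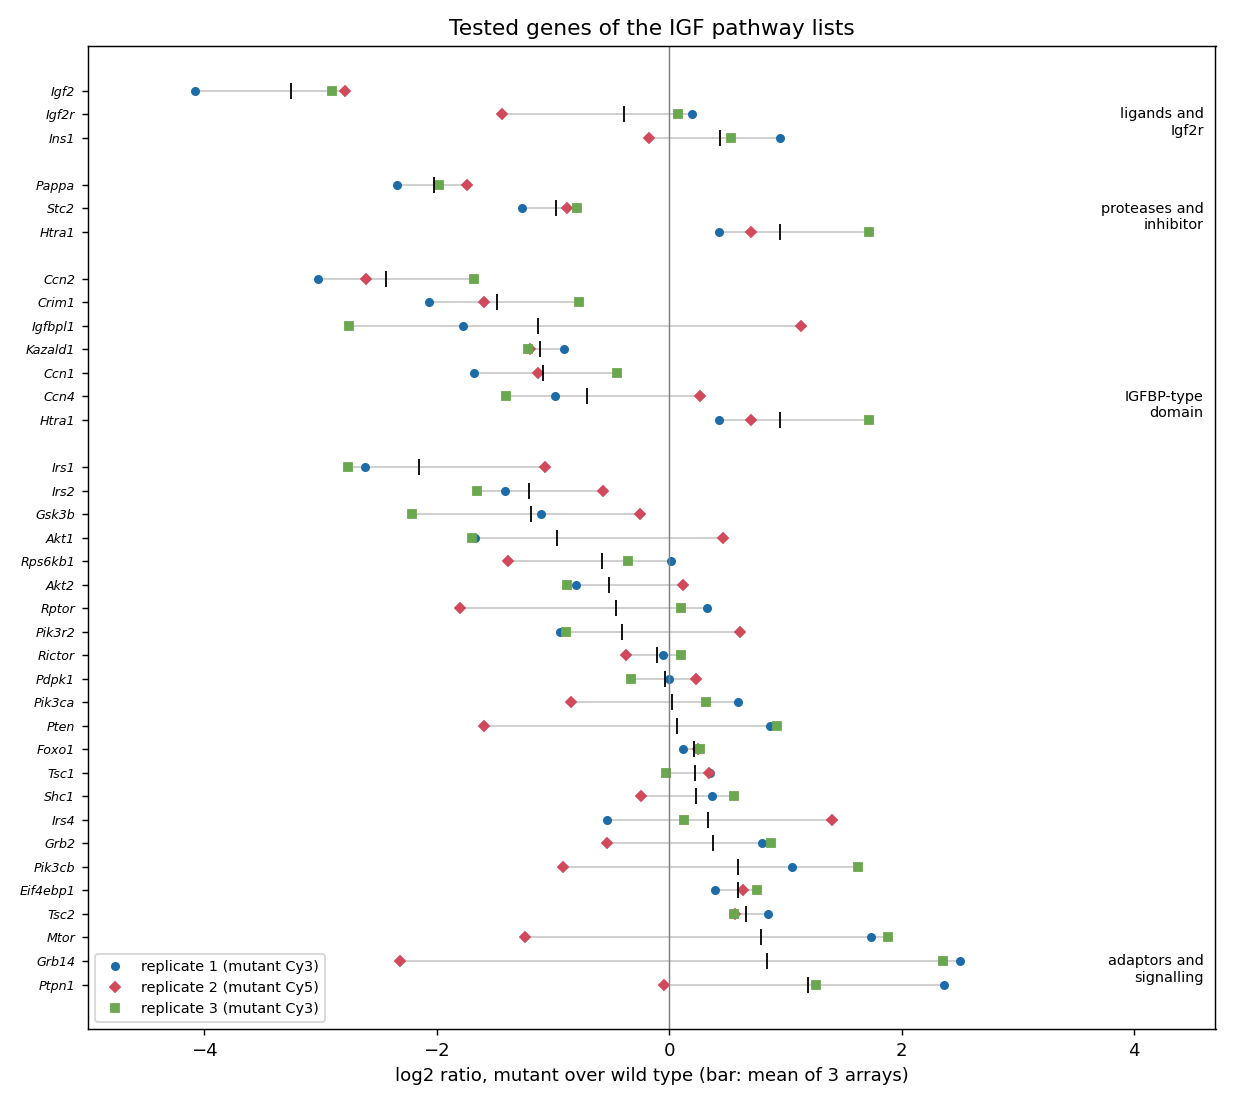
Log2 ratio of mutant over wild type of tested genes of 4 IGF pathway lists on each array (markers), with the mean of 3 arrays (bar); Htra1 belongs to 2 lists and is drawn in both. Igf2 has the lowest mean of these genes at −3.25, Pappa and Ccn2 are below 0 on each array, and the signalling genes lie on both sides of 0.

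Embryoid bodies hold many cell types, and in bulk RNA fewer cells of a type cannot be told apart from less RNA per cell. Marker genes of 6 cell types were therefore read beside the members. Of 12 markers of extraembryonic endoderm, the tissue of the yolk sac, 11 were below 0 on all 3 arrays, none passed the threshold, and the median log2 ratio was −2.41. Their summed linear signal was 194958, 509018 and 183889 in the wild type samples of replicates 1, 2 and 3, and 16876, 121211 and 24992 in the mutant samples. The sum was highest on replicate 2 in both genotypes. Igfbp1 was highest on replicate 2 among mutant samples but on replicate 3 among wild type samples. The brightest of these markers were Sparc, at −3.26 ± 0.50, and Lama1, at −3.69 ± 0.47 (SE, n = 3). Their mean log2 signals in wild type were 16.32 and 16.27. A linear sum, here and below, is weighted towards its brightest genes.

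Neural markers were another group that moved with the array. Of 9, 7 were tested, with a median log2 ratio of −0.95 and no call. The gene at this median was well above background in only 2 of 3 mutant samples and entered the fit through the wild type samples. Their summed signal was 27861, 3030 and 62340 in wild type and 2960, 2020 and 4318 in mutant samples. The sum was lowest on replicate 2 in both genotypes. Igfbp5 was lowest on replicate 2 among wild type samples but highest there among mutant samples. The sum of the mesenchyme markers was 12352, 22568 and 26832 in wild type and 7422, 16823 and 7281 in mutant samples. It was lowest on replicate 1 among wild type and highest on replicate 2 among mutant samples. Of the brightest 2 neural markers, Zic1 averaged −5.41 ± 1.04 (SE), with a signal well above background in 2 of 3 mutant samples, and Tubb3 0.09 ± 0.48 (SE).

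Of 10 markers of undifferentiated cells 8 were above 0 on all 3 arrays, 2 were called higher (Zfp42 and Dppa5a, at 3.17 ± 0.26 and 2.67 ± 0.24, SE, limma adjusted p = 0.0417 for both), and the median log2 ratio was 2.30. Their summed signal ran from 158876 to 352419 in mutant and from 31202 to 64860 in wild type samples. The median was −0.54 over 9 tested of 10 mesenchyme markers, −0.65 over 6 of 10 endothelial and −0.44 over 7 of 7 cardiac ones, with no call among them. The gene at the cardiac median was well above background in only 1 of 3 mutant samples. Of the 2 genes at the endothelial median, 1 was so in no mutant sample. Both entered the fit through the wild type samples. Of the brightest genes of these cell types, Col1a1 and Col1a2 averaged −0.54 ± 0.29 and −1.73 ± 0.50, Kdr and Esam −0.61 ± 0.24 and −1.03 ± 0.49, and Myh6 and Actc1 1.81 ± 0.34 and −0.39 ± 0.31 (SE). Summed signals ran from 7281 to 16823 in mutant and from 12352 to 26832 in wild type samples for mesenchyme, from 1109 to 1791 and from 1991 to 2178 for endothelium, and from 3271 to 3501 and from 2586 to 6234 for cardiac muscle. The part of these cell types in the ratios of the 10 genes was not tested.

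The genes whose ratios were most like those of Igfbp1, the member with the largest mean, were found by the root mean square difference of the log2 ratios over the 3 arrays. Nr2f1, a nuclear receptor of neural and other embryonic tissue, came closest, with −5.40, −3.44 and −6.18 and a difference of 0.30. Gkn2 followed at 0.58, Sp8 at 0.69 and Col4a1, a basement membrane collagen, at 0.80. With 3 arrays, a likeness of this kind ranks genes only by size.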

How the data were processed

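RNA of 3 mutant and 3 wild type samples was amplified, labelled and hybridised in pairs on 3 arrays, per the labels' protocols. The deposited scanner files, made with Feature Extraction 10.7.3.1 per the file headers, hold the mean and background intensity of both dyes, not normalised, and other columns of flags, deposited beside them, that mark a spot above background, saturated or an outlier. The authors' deposited table gives log2 ratios. The submitters' processing notes name limma, and its version and settings are not given in the sources used here. Its column labelled replicate 1 correlated better with the scanner file of replicate 3 (0.916) than with its own (0.771), and that of replicate 3 better with the file of replicate 1 (0.983 against 0.842). Its medians were −0.04, 0.01 and −0.01, its direction was mutant over wild type, and its centring is unknown.

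R 4.3.3 with limma 3.58.1 was used, and Python 3.11.15 with matplotlib 3.10.9 for figures. Signals were corrected with normexp (offset 50) and loess within arrays, in which the 1377 control spots had weight 0. Replicate 3 had 7 spots with a flagged background over 10 times the array median; they took that median and were left out, a rule set after signals were seen. Outlier spots were left out (317, 364 and 438). Signs were turned so that ratios read mutant over wild type, and repeated spots were averaged. Levels per sample were scaled with Aquantile. Of 39429 probes 26761 (67.9%) matched a RefSeq accession of GRCm38.p6, which gave symbols. The brightest of 19142 detected probes stood for a gene. Two-sided limma tests (lmFit, eBayes) asked whether the mean ratio differs from 0, at a Benjamini-Hochberg adjusted p of 0.05, and the fit was tested on simulated data. Each SE given is that of this fit after eBayes, whereas each SD is that of the values themselves.

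The members and lists were chosen with earlier results of these data known. Named were all members, the 3 pathway genes of smallest p per list, the 2 brightest markers per cell type and the 5 genes most like Igfbp1; 1 pathway gene and 1 of these 5 are not reported here. Alternatives changed background, normalisation, filter, probe choice, dye term and pairing, or left out a replicate.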

Additional observations from a re-analysis of the deposited data

How the results depend on the processing

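The 8 members with one sign on 3 arrays kept it under each of 13 alternatives (12 for Igfbp1 and Igfbp6, which could not be fitted when both channels had to be above background), and Igfbp4 stayed above 0 in all 13. For these 8 members several alternatives could not change the sign. Leaving out a replicate, unpairing the channels or adding a dye term only averages values of the same sign. The changes of filter gave the same values as the main fit wherever a member could be fitted. Means ran from −5.88 to −3.18 for Igfbp1, −4.52 to −2.54 for Igfbp5, 0.35 to 2.20 for Igfbp4, −1.68 to −0.84 for Igf1r and −1.12 to −0.52 for Insr. The members' median moved from −0.27 to 0.45 when both channels had to be above background, a fit that drops 2 of the lower genes. Median centring moved the median of all genes to −0.22. Counts of calls, higher and lower over all genes, were 32 and 14. They were 0 and 0 with all spots of replicate 3 and with the authors' deposited table, 140 and 106 with processed signals, 4 and 3 with median centring, 68 and 50 with scale normalisation, 1 and 1 with no filter, 3 and 1 with both channels above background, 67 and 36 with the mean of probes, and 2448 and 2299 with a dye term. Without the replicate block that pairs the samples of an array they were 179 and 96, with 3 lower pathway genes and 2 members. Leaving out a replicate gave 3 to 3962 higher and 2 to 3343 lower genes, 0 to 9 higher and 0 to 16 lower pathway genes and 0 to 8 members, each highest without replicate 2. Lower pathway genes passing numbered 2 with processed signals, 1 with scale normalisation, 1 with the mean of probes and 15 with a dye term, which also passed 2 higher ones. Members passing were 2 (Igfbp1 and Igfbp5) with processed signals, scale normalisation, the mean of probes or no block, 6 with a dye term, 8 without replicate 2 and 1, Igfbp1, without replicate 3. In 2 of these fits, the one with a dye term and the one that leaves out replicate 2, the error comes from replicates 1 and 3 alone. These share a dye orientation, so that the latter fit cannot tell genotype from dye. Both fits called a large part of the array, where the main fit tested 15428 genes. The 8 members stand beside 3962 higher and 3343 lower genes in the latter fit. The 6 members stand beside 2448 higher and 2299 lower genes in the former. Nothing is therefore read from these member counts. The cause of the other changes was not tested.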
